A study of Homo sapiens with 15 samples.

Results

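The 3 libraries described here were made from RPMI-8226 cells given DMSO, the solvent control of a time series of 15 libraries. RPMI-8226 is an established human multiple myeloma line, labelled wild type and kept in standard medium with serum. The other 12 libraries came from the same line treated with 100 nM KB528, a p300 acetyltransferase inhibitor per the series' design text, for 1, 3, 6 or 24 h, with 3 libraries at each time. The DMSO libraries are labelled 0 h, and none is matched to the later times. The 3 DMSO libraries were chosen by their labels alone. They were described across the 26364 gene rows of the deposited table, after its 92 spike-in rows were set aside. The labels give replicate numbers but do not say that the replicates came from separate cultures, so the spread between them may be technical.

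Plasma cells are the antibody-secreting end stage of the B cell lineage. They switch off the identity factors of mature B cells, switch on IRF4, PRDM1 and XBP1, and enlarge the endoplasmic reticulum to fold and export immunoglobulin. Multiple myeloma is a malignancy of plasma cells that often carries a translocation joining an immunoglobulin locus to an oncogene such as MAF, and RPMI-8226 is known as a MAF-expressing line. Levels are given as TPM, a length-normalized transcript abundance in which each gene's reads are divided by transcript length and by the total of the library, so that levels of different genes can be set side by side.

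The defining genes of the line were present in every DMSO library. MZB1, an endoplasmic reticulum protein of antibody-secreting cells, was at 2670, 2667 and 2517 TPM in replicates 1, 2 and 3 (2618 ± 87.7, SD, n = 3). ITGB7, an integrin subunit and a known target of MAF in myeloma, was at 2535, 2419 and 2659 TPM (2538 ± 120, SD, n = 3). These values overlapped, so the order of MZB1 and ITGB7 was not resolved. MYC followed at 799, 741 and 883 TPM (808 ± 71.5, SD, n = 3). MAF was at 403, 364 and 442 TPM (403 ± 39.0, SD, n = 3). SDC1, which encodes the plasma cell surface marker CD138, was at 249, 224 and 257 TPM (243 ± 17.4, SD, n = 3). IRF4, the factor named in the series' title, was the lowest of the 6 markers, at 90.5, 81.7 and 103 TPM (91.6 ± 10.5, SD, n = 3). From ITGB7 down to IRF4, no marker's range overlapped that of the next. IRF4 stood at rank 1674 of the 26364 gene rows, while MZB1 stood at rank 45 and ITGB7 at rank 48.

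The promoters of these genes were of contrasting kinds, and they are shown because 3 of the most abundant plasma cell genes, JCHAIN, MZB1 and ITGB7, had few CpG, unlike most abundant genes of this line. Each sequence below is the 250 bases upstream of the first listed start in RefSeq (build GRCh38.p14), read 5′ to 3′ on the strand of the gene, with every CpG dinucleotide in capitals. JCHAIN, which encodes the joining chain of polymeric antibodies, was the most abundant of the listed plasma cell genes with a row. It lies on the minus strand at chr4:70666509-70666758. MZB1 lies on the minus strand at chr5:139389914-139390163 and ITGB7 on the minus strand at chr12:53207252-53207501. SDC1 lies on the minus strand at chr2:20225476-20225725, IRF4 on the plus strand at chr6:391502-391751 and MAF on the minus strand at chr16:79600738-79600987.
JCHAIN: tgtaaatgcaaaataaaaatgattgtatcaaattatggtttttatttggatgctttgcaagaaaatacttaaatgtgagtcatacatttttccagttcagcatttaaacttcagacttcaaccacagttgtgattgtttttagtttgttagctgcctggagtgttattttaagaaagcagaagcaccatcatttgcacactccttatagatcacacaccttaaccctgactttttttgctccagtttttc
MZB1: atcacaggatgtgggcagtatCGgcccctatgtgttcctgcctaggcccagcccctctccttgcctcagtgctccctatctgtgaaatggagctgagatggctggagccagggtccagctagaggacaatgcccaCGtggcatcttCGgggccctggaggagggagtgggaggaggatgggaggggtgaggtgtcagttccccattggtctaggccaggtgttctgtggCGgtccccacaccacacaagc
ITGB7: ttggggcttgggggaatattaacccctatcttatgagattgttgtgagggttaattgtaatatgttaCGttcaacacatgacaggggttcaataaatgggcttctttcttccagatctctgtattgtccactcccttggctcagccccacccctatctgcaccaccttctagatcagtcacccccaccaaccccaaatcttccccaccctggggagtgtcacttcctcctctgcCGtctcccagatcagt
SDC1: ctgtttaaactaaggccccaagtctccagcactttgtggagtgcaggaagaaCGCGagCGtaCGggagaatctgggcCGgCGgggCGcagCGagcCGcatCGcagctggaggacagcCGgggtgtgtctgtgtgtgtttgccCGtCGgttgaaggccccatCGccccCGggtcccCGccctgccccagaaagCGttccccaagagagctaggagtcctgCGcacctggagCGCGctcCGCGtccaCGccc
MAF: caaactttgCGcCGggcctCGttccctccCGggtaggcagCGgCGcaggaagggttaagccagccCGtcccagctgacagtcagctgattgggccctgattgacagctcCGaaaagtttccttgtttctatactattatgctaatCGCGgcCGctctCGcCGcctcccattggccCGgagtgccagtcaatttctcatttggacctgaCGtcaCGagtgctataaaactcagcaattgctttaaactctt
IRF4: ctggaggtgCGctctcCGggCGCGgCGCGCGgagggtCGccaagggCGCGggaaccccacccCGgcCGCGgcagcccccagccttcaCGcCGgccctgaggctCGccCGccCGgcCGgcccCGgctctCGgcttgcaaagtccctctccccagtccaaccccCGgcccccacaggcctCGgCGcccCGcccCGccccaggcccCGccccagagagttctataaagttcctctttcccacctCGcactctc
JCHAIN held 0 CpG in this window, ITGB7 held 2 and MZB1 held 4, whereas MAF held 16, SDC1 held 23 and IRF4 held 28. The observed number of CpG relative to the number expected from base composition was 0 for JCHAIN, 0.138 for ITGB7 and 0.173 for MZB1. It was 0.835 for SDC1, 0.833 for IRF4 and 0.877 for MAF. Of these 6 genes, those at the highest levels had CpG-poor windows, and SDC1, MAF and IRF4, at lower levels, had CpG-rich ones. The 6 were picked by hand, with JCHAIN and without the marker MYC, so their order does not describe genes in general. Across all protein-coding promoters the CpG-rich share rose with level, from 26.1% for genes listed at 0 to 89.2% at 1000 TPM and more.

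Of the 26364 gene rows, 11942, 11806 and 11988 reached 1 TPM in replicates 1, 2 and 3. A minimum of 1 TPM in all 3 libraries was met by 11651 genes (44.2%), among them 10489 of 19002 protein-coding genes (55.2%). Another 14179 genes were under 1 TPM in all 3 libraries and together held 0.119% of the TPM of all genes. Of these, 6972 were listed at 0 in all 3. Spike-in RNAs took 11.3%, 14.8% and 13.8% of the TPM of replicates 1 to 3, within the 9.35% to 16.6% seen over all 15 libraries. The smallest steps in the values were worth 0.0347, 0.0311 and 0.0369 TPM per read for a 1000-base transcript, so 1 TPM there rests on 28.8, 32.1 and 27.1 reads. Between libraries, the correlation of log2 levels across genes was 0.998 for each of the 3 pairs, as a description over genes that are not independent replicates. A value of 0 in this table need not mean absence: EIF4A1 and EIF3C, translation initiation factors that dividing cells need, were listed at 0 in all 3 libraries. RPL21, a ribosomal protein gene with many processed copies, was at 0.123, 0.110 and 0.0651 TPM, and HK1, a hexokinase, was at 0.0243, 0.0290 and 0.0344 TPM. Genes with a value of 0 are therefore described below as listed at 0, with no statement that they are absent.

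The transcriptome was concentrated in few genes. The 10 most abundant genes held 8.52% ± 0.461 (SD, n = 3) of gene TPM, the top 100 held 33.9% ± 1.46, and 342 genes sufficed for 50%. Only 103 genes had a mean of 1000 TPM or more, and they held 34.3% of gene TPM. A further 1427 genes between 100 and 1000 TPM held 40.1%, and the 5869 genes between 10 and 100 TPM held 23.1%. Protein-coding rows carried 97.4% of the total, long non-coding rows 0.780% and small RNA rows 1.16%.

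Translation was the largest class. Cytosolic ribosomal protein genes supplied 16 of the 20 most abundant genes, 56 of the top 100 and 22.9%, 23.8% and 21.0% of gene TPM in replicates 1 to 3. RPLP1, an acidic stalk protein of the large subunit, was the most abundant gene at 15444, 15847 and 13614 TPM. The elongation factor EEF1A1 was at 8626, 7869 and 7859 TPM, and the list of translation factors and abundant RNA-binding proteins held 4.13% ± 0.0206 (SD, n = 3). Replicate 3 had the lowest ribosomal protein share, 20.989%, below both other libraries. Outside translation, the most abundant gene was FTL, the light chain of the iron store ferritin, at 8772, 9282 and 8849 TPM, which was 2.99 ± 0.283 times (SD, n = 3) the level of the heavy chain gene FTH1. The glycolytic enzyme GAPDH was at 4807, 4787 and 4725 TPM, the joining chain gene JCHAIN was at 4649, 4246 and 3968 TPM, and the mitochondrial protein gene CHCHD2 was at 3610, 3605 and 3272 TPM. MIF, a cytokine-like tautomerase, had a mean of 3150 TPM and PPIB, a prolyl isomerase of the endoplasmic reticulum, a mean of 2990 TPM. PPIB, MZB1 and ITGB7 stood among the structural genes actin (ACTB, 3160 TPM), thymosin (TMSB4X, 2691 TPM) and tubulin (TUBA1B, 2551 TPM).

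Shares of energy metabolism and protein turnover genes at 1 TPM or more in all 3 libraries stood above the 55.2% of all protein-coding genes. Of 81 oxidative phosphorylation subunit genes encoded in the nucleus, 78 reached 1 TPM in all 3 libraries, with a median of 218 TPM. Glycolysis genes held 1.89% ± 0.0356 (SD, n = 3), with 21 of 29 at 1 TPM or more. The 8 that stayed under 1 TPM included the germ cell forms PGK2 and LDHC, both listed at 0. Proteasome subunits, the target class of bortezomib in myeloma, reached 1 TPM in 37 of 39 cases. The testis subunit PSMA8 and the thymus subunit PSMB11 were the members under it. PSMB4 led the list at 942, 940 and 863 TPM.

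**Figure D1:**
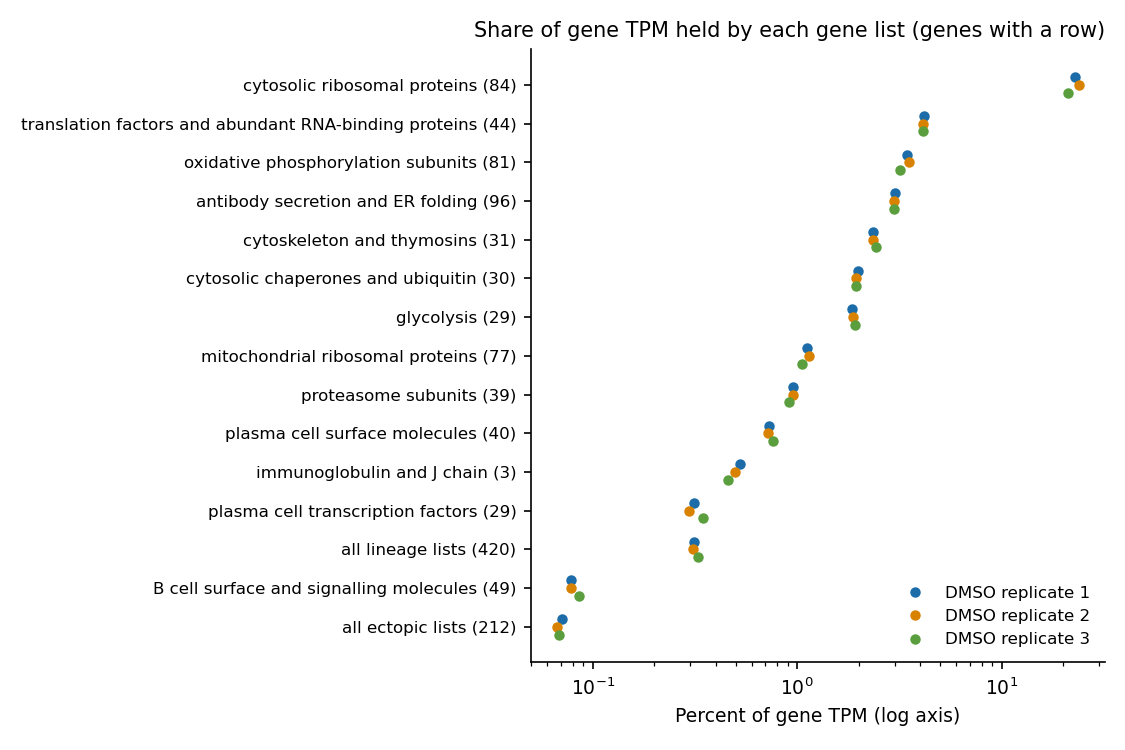
Share of gene TPM (percent, log axis) held by each of 15 gene lists or list groups, 1 point per DMSO library, with the number of genes that have a row in brackets. Ribosomal proteins sit near 22.6%, secretion genes at 2.98%, and the 420 genes of other lineages together at 0.317%.

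Of the plasma cell lists, that of genes for making and exporting antibody had the largest share at 1 TPM or more. All 96 genes of the antibody secretion and endoplasmic reticulum folding list reached 1 TPM in all 3 libraries, beside 55.2% of all protein-coding genes. Of the list, 92 reached 10 TPM and 54 reached 100 TPM, with a median of 120 TPM against 2.72 TPM over protein-coding rows. Over the 19002 protein-coding genes, 6759 reached 10 TPM and 1395 reached 100 TPM. Some general housekeeping lists were as complete: all 77 mitochondrial ribosomal protein genes and all 30 cytosolic chaperone and ubiquitin genes reached 1 TPM. Their medians were 84.8 and 386 TPM. The summed share of the antibody secretion list was 2.99%, 2.98% and 2.98% of gene TPM, an SD of 0.00923. After PPIB and MZB1, the calcium-binding chaperone CALR was at 1454, 1420 and 1543 TPM and the disulfide isomerase P4HB at 902, 850 and 956 TPM. SSR2, a subunit of the translocon-associated complex, was at 742, 755 and 761 TPM. HSP90B1, the chaperone GRP94, was at 767, 706 and 755 TPM. ERN1, which encodes the stress sensor IRE1 that splices XBP1, was lower than these chaperones, at 29.6, 24.3 and 35.4 TPM. Of 81 promoters of this list, 60.5% held CCAAT on either strand in the 250 bases upstream, compared with 34.5% of 14322 protein-coding promoters. The same letters stood in 65.4% of 78 homeobox and patterning promoters and in 48.5% of 68 cancer-testis antigen promoters. The letters TGACGTGG, a core bound by XBP1, were found in 4.94% of the list and in 0.712% of all promoters. The homeobox and patterning promoters held them in 2.56% and the cancer-testis antigen promoters in 0%. These are counts of letters, not of bound sites, and no test was made.

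The immunoglobulin list could be described through few genes. Of its 18 members, 3 had a row in the table, and the heavy and light chain constant genes are not analysed here. Those genes cannot be ranked against JCHAIN, and the shares of gene TPM leave them out. JCHAIN was abundant, as given above, and ran 1.64 ± 0.0911 times (SD, n = 3) the level of MZB1 within a library. IGLL5, which shares sequence with the lambda light chain locus, was at 1.64, 2.29 and 1.39 TPM, and IGLL1, a surrogate light chain gene of B cell precursors, was at 0.309, 0.104 and 0.0410 TPM.

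Of 29 plasma cell transcription factors, 27 (93.1%) reached 1 TPM in all 3 libraries, beside 55.2% of all protein-coding genes, and 4 reached 100 TPM. Of the 19002 protein-coding genes, 6759 reached 10 TPM and 1395 reached 100 TPM. The gene lists of this report were chosen with earlier results of these data known, so their shares may reflect that choice. MYC and MAF are given above. XBP1, which drives the secretory programme, was at 563, 527 and 546 TPM, ZBTB38 at 130, 103 and 135 TPM and the octamer coactivator POU2AF1 at 108, 97.5 and 126 TPM. PRDM1, the repressor of B cell identity, was lower, at 25.4, 22.5 and 32.2 TPM. POU2F2, an octamer factor of B cells, was at 0.198, 0.143 and 0.164 TPM, so the coactivator was present with little of this partner, while POU2F1, the ubiquitous octamer factor, was at 5.24, 4.20 and 5.38 TPM. Of 22 mature B cell factors, 12 (54.5%) reached 1 TPM in all 3 libraries, near the share of all protein-coding genes, 5 reached 10 TPM and none reached 100 TPM. PAX5, which holds B cell identity, was at 0.0349, 0.0521 and 0.0494 TPM. BCL6, the germinal centre repressor, was at 0.594, 0.509 and 0.668 TPM, and CIITA, the master regulator of class II antigen presentation, was at 0.354, 0.404 and 0.627 TPM. The mature B cell factors of highest mean were SPI1, STAT6 and IRF8. SPI1, which encodes the myeloid and B cell factor PU.1, was at 61.5, 57.4 and 64.9 TPM, STAT6 at 56.4, 50.9 and 61.5 TPM and IRF8 at 29.2, 25.2 and 28.5 TPM.

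Of 40 plasma cell surface genes, 34 (85.0%) reached 1 TPM in all 3 libraries, beside 55.2% of all protein-coding genes, and 11 reached 100 TPM. Over the 19002 protein-coding genes, 1395 reached 100 TPM. BST2, an interferon-induced tether of enveloped viruses that is abundant on myeloma cells, was at 1188, 1155 and 1094 TPM. CD320, the receptor for vitamin B12 bound to transcobalamin, was at 559, 552 and 566 TPM. TNFRSF17, which encodes BCMA, was at 131, 123 and 116 TPM and CD38 at 54.7, 52.3 and 55.0 TPM. Lower levels were recorded for other surface antigens of plasma cells. SLAMF7 was at 1.49, 1.71 and 1.77 TPM and GPRC5D at 6.66, 5.79 and 4.26 TPM. CD27, a memory and plasma cell receptor, was at 0.0263, 0.118 and 0.223 TPM, FCRL5 at 0.0967, 0.0924 and 0.0753 TPM, CD44 at 0.0676, 0.0606 and 0.0663 TPM. CD200 was listed at 0 in all 3, which carries no statement of absence.

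Of 49 B cell surface and signalling genes, 23 reached 1 TPM in all 3 libraries, a share of 46.9% beside 55.2% of all protein-coding genes. CD74, the invariant chain of class II molecules, led at 163, 157 and 174 TPM, followed by CD81 at 98.8, 97.6 and 114 TPM and the kinase BLK at 70.0, 64.7 and 72.0 TPM. The 8 class II genes on the list were all under 1 TPM. HLA-DRA was at 0.577, 0.607 and 0.559 TPM, so CD74 was 284 ± 26.3 times (SD, n = 3) higher, and HLA-DQB1 was listed at 0. The B cell coreceptor CD22 was listed at 0 in all 3 libraries, and the receptor subunits CD79A (0.663, 1.09 and 0.762 TPM) and CD79B (0.0824, 0.148 and 0.0292 TPM) were at or under about 1 TPM. MS4A1, which encodes CD20, was at 5.98, 5.33 and 5.35 TPM. Octamer letters (ATGCAAAT, either strand) stood in 8.11% of 37 promoters of this list and in 1.48% of all protein-coding promoters, as a description. They stood in 5.13% of 78 homeobox and patterning promoters and in 0% of 68 cancer-testis antigen promoters.

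**Figure D2:**
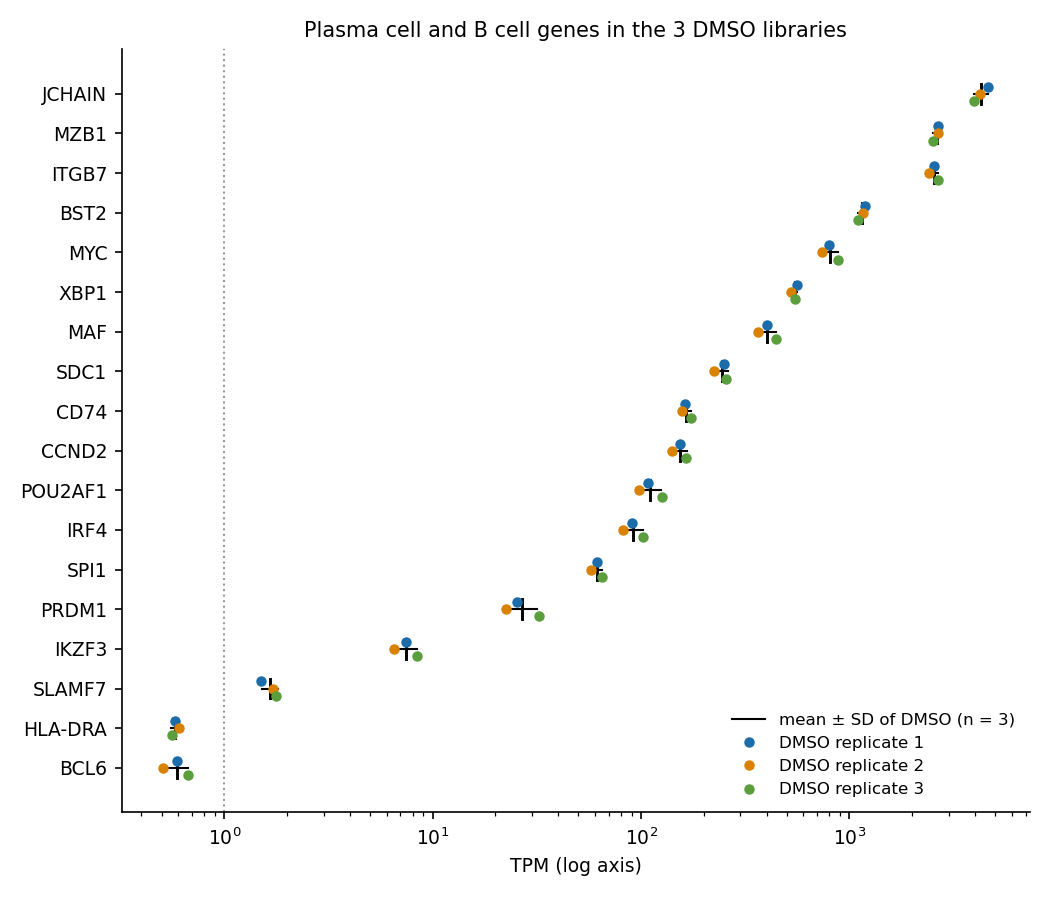
TPM (log axis) of 18 plasma cell and B cell genes in the 3 DMSO libraries; points are libraries, the vertical tick is the mean and the horizontal line is the SD. JCHAIN, MZB1 and ITGB7 lie above 2000 TPM in every library, while HLA-DRA and BCL6 lie left of the dotted line at 1 TPM.

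Of 14 oncogenes known from myeloma translocations, 11 (78.6%) reached 1 TPM in all 3 libraries, beside 55.2% of all protein-coding genes. Besides MYC and MAF, CCND2, the D-type cyclin known to be driven by MAF, was at 154, 141 and 165 TPM. It stood above CCND3, with a mean of 28.8 TPM, and CCND1, with a mean of 21.9 TPM. The members of other translocation classes FGFR3 (0.454, 0.393 and 0.366 TPM) and MAFA (0.176, 0.223 and 0.311 TPM) were below 1 TPM. WHSC1, the histone methyltransferase of the FGFR3 translocation class, had a mean of 16.9 TPM. Among protein-coding genes, 55.2% reached 1 TPM and 1395 of 19002 reached 100 TPM in all 3 libraries. Of 15 genes of the known MAF programme, MAF among them, 13 (86.7%) reached 1 TPM and 8 reached 100 TPM. After ITGB7 and MAF itself, they were led by SPP1, which encodes osteopontin, at 320, 286 and 284 TPM, and the chemokine receptor CX3CR1 at 267, 250 and 293 TPM. ARID5A was at 236, 220 and 246 TPM and DEPTOR, an inhibitor within mTOR complexes, at 183, 169 and 193 TPM. SMARCA1 (0.659, 0.508 and 0.583 TPM) and NTRK2 (0.00679, 0.00456 and 0.00541 TPM) were the MAF programme members below 1 TPM. The programme's median was 132 TPM, beside 2.72 TPM over protein-coding rows.

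Among 53 genes recurrently altered in myeloma, 46 (86.8%) reached 1 TPM in all 3 libraries, beside 55.2% of all protein-coding genes. CDKN2A, a cell cycle inhibitor, was at 187, 183 and 168 TPM, while CDKN2C, an inhibitor often deleted in myeloma, was listed at 0, 0 and 0.0446 TPM. TRAF3, a brake on non-canonical NF-kappaB signalling, was at 2.65, 2.62 and 3.05 TPM. The acetyltransferase genes EP300, which encodes p300, and CREBBP, its paralog, were at 21.5, 17.4 and 27.3 TPM and at 16.1, 13.5 and 20.2 TPM. Replicate 3 was the highest and replicate 2 the lowest for both. Among all 8971 genes averaging 5 TPM or more, small RNA rows set aside, replicate 3 was highest for 5384 and replicate 2 lowest for 6873. Among 46 drug target and response genes, 43 (93.5%) reached 1 TPM in all 3 libraries, beside the same 55.2%. PIM2, a survival kinase of plasma cells, was at 366, 343 and 404 TPM, CRBN, the receptor of lenalidomide, at 17.2, 15.3 and 14.7 TPM and its substrate IKZF3 at 7.40, 6.55 and 8.42 TPM. MCL1, at 101, 86.6 and 106 TPM, and BCL2L1, at 121, 116 and 132 TPM, were the anti-apoptotic genes of higher level, with BCL2 at 14.8, 12.1 and 16.2 TPM. ABCB1, the drug efflux pump, was listed at 0, 0.00660 and 0 TPM.

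A few further abundant genes were picked after their values were seen. PVALB, which encodes the calcium buffer parvalbumin, was at 988, 992 and 916 TPM, the raft protein gene MAL at 862, 877 and 950 TPM and the growth factor binding protein gene IGFBP3 at 696, 649 and 686 TPM. The NADPH oxidase subunit gene CYBA was at 1737, 1790 and 1619 TPM. Among long non-coding RNAs, the snoRNA hosts GAS5 (mean 310 TPM) and SNHG1 (mean 285 TPM) and the intergenic LINC01287 (mean 293 TPM) were the most abundant. Among small RNA rows, MIR6087 was at 3770, 2647 and 2916 TPM. That value comes from an mRNA library, so it is not a measure of the mature microRNA.

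Replicate spread was small for most genes and had a direction shared across genes. Over 8971 genes that averaged 5 TPM or more, small RNA rows set aside, the median coefficient of variation was 7.45%, and 71 of them (0.791%) exceeded 20%. Replicate 2 was the lowest library for 6873 of these genes and replicate 3 the highest for 5384. Replicate 2 also had the largest spike-in share, 14.8%. Over all rows, small RNA included, the median coefficient of variation was 7.54% as deposited, 6.94% with gene TPM rescaled without the spike-ins and 5.47% with median-ratio scaling of the 3 libraries. Small RNA rows varied more, with a median of 19.3% over 208 rows. The 10 rows of largest variation were all snoRNA or microRNA rows, from SNORD93 (3.29, 2.94 and 9.97 TPM) to SNORD54 (3.86, 11.9 and 8.19 TPM). Their short length makes 1 read worth more TPM.

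Immediate early genes, which respond within minutes to growth factors and handling, had a median level of 10.2 TPM. Of 37, 26 (70.3%) reached 1 TPM in all 3 libraries, beside 55.2% of all protein-coding genes. The median coefficient of variation of the 23 members averaging 5 TPM or more was 11.7%. That was near the 11.4% of plasma cell transcription factors and the 10.4% of recurrently altered myeloma genes. JUND led at 172, 157 and 187 TPM, followed by the phosphatase gene DUSP5 at 146, 134 and 155 TPM. FOS was at 38.6, 35.0 and 55.8 TPM, JUN at 35.4, 33.4 and 46.2 TPM and DUSP1 at 73.7, 70.0 and 111 TPM. Replicate 3 was the highest for each of these 5 genes, as it was for 5384 of the 8971 genes above. EGR1, a frequent member of the same response, was at 0.266, 0.278 and 0.376 TPM, and EGR2 to EGR4 did not exceed it by mean.

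Most genes of other cell types were recorded under 1 TPM. Of 420 genes in 18 lineage lists, 66 (15.7%) reached 1 TPM in all 3 libraries, beside 55.2% of protein-coding genes, 345 were under 1 TPM in all 3 and 142 were listed at 0 in all 3. In bulk RNA, a few cells of another type and a low level in every cell cannot be told apart. None of 19 natural killer and cytotoxic genes reached 1 TPM, and the highest mean among them was 0.188 TPM. The myeloid granule genes MPO and ELANE, the T cell receptor subunit CD3D, the foetal globins HBG1 and HBG2, the liver gene APOB, the endothelial cadherin CDH5 and the pluripotency factor NANOG were listed at 0 in all 3 libraries. Liver genes reached 1 TPM in 1 of 24 cases, pluripotency and germ line genes in 1 of 26, and neuron genes in 3 of 33. The shares were higher for simple epithelium (9 of 23), T cells (8 of 23) and keratinocytes (6 of 23). Olfactory receptors, a large family of sensory neurons of the nose, reached 1 TPM in 2 of 378 cases, OR2C1 (2.85, 2.76 and 3.35 TPM) and OR2W3 (1.95, 1.61 and 1.99 TPM), and 341 of the family were listed at 0.

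**Figure D3:**
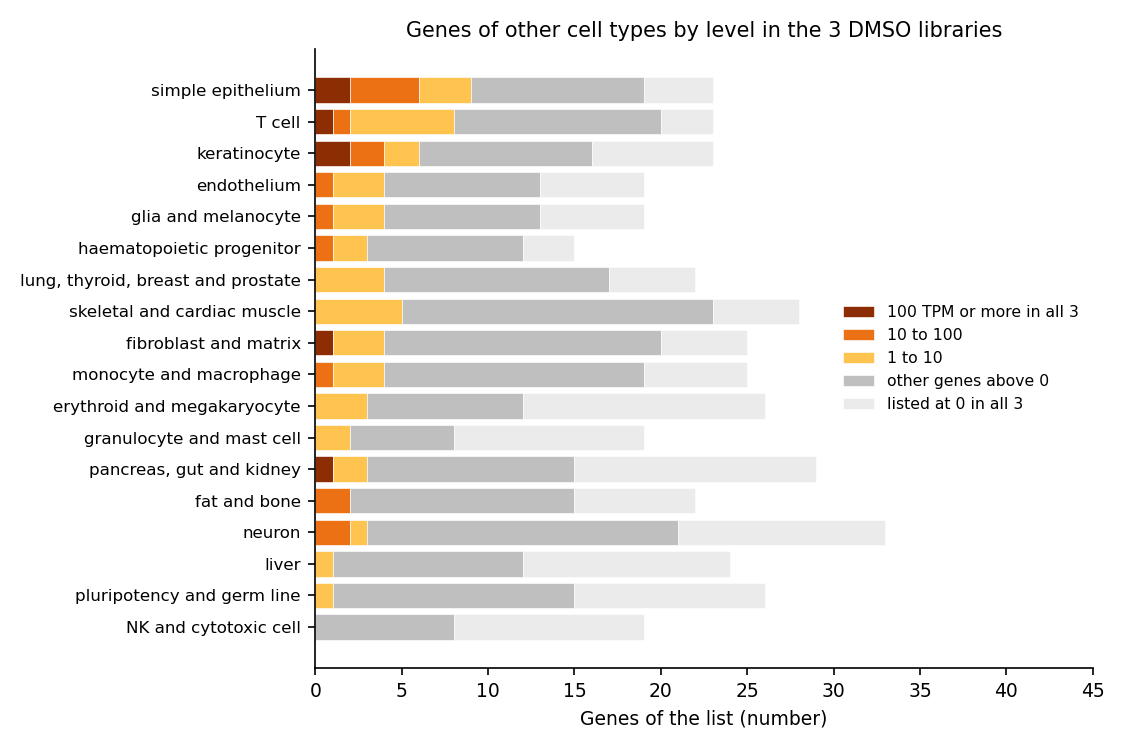
Number of genes of 18 lists of other cell types at each level (TPM reached in all 3 DMSO libraries); pale grey marks genes listed at 0 in all 3, dark grey the other genes that did not reach 1 TPM in every library. Simple epithelium has 9 of 23 genes at 1 TPM or more and the natural killer list has 0 of 19.

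Of the 420 lineage genes, 7 reached 100 TPM in all 3 libraries and 22 reached 10 TPM. Of the 19002 protein-coding genes, 1395 reached 100 TPM and 6759 reached 10 TPM. FN1, the matrix protein fibronectin, was at 595, 502 and 689 TPM, while the fibroblast genes COL3A1 and DCN were listed at 0. CD8B, a coreceptor chain of cytotoxic T cells, was at 505, 487 and 478 TPM, 273 ± 29.7 times (SD, n = 3) the level of its partner chain CD8A, and CD3E was at 0.321, 0.370 and 0.0731 TPM. THEMIS, a T cell selection gene, was at 26.5, 21.5 and 25.6 TPM, and LAT at 9.21, 8.01 and 8.35 TPM. PRSS1, the pancreatic trypsinogen, was at 311, 319 and 296 TPM, while INS, GCG and PNLIP were listed at 0. PRSS1 has near-identical copies among which the authors' counting could divide reads, so the assignment to this copy is uncertain.

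Keratins supplied 3 of these 7 genes. KRT15, a type I keratin of basal keratinocytes, was at 255, 256 and 262 TPM, KRT18, a type I keratin of simple epithelium, at 146, 149 and 147 TPM, and KRT16, a type I keratin of stressed epidermis, at 145, 139 and 136 TPM. Keratin filaments pair a type I with a type II protein. KRT8, the usual type II partner of KRT18, was at 3.77, 4.26 and 3.37 TPM, so that KRT18 was 39.1 ± 4.38 times (SD, n = 3) higher. KRT5, the basal type II keratin, was at 0.302, 0.365 and 0.288 TPM and KRT6A, a partner of KRT16, at 0.0142, 0.0508 and 0.0151 TPM. KRT7, another type II keratin, was the most abundant of its type on these lists, at 40.0, 39.4 and 37.1 TPM. KRT14, close in sequence to KRT16, was at 0.594, 0.533 and 0.361 TPM and KRT17 at 0.883, 0.751 and 1.19 TPM. KRT18 has many processed copies, so its level is uncertain in the same way as that of PRSS1. The ratio of KRT18 to KRT8 carries the same uncertainty. EPCAM, an epithelial adhesion molecule, was at 116, 110 and 113 TPM, the tight junction gene CLDN3 at 44.5, 47.1 and 43.5 TPM and the epithelial splicing factor ESRP1 at 35.6, 33.6 and 39.3 TPM. CDH1, which encodes E-cadherin, was at 0.519, 0.478 and 0.605 TPM.

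Lower members came from further tissues. The endothelial gene EGFL7 was at 81.1, 79.1 and 75.4 TPM while KDR was listed at 0. The macrophage lysosomal gene CD68, which many cell types express at some level, was at 52.8, 48.1 and 55.8 TPM while CD163 was listed at 0. The somatostatin receptor gene SSTR3 was at 45.7, 42.9 and 49.0 TPM. The alpha globin genes HBA2 (9.70, 9.52 and 8.41 TPM) and HBA1 (8.25, 9.19 and 8.70 TPM) are near-identical, so reads cannot be assigned to one of them with confidence, and the delta globin gene HBD was listed at 0.

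Of 84 cancer-testis antigens with a row, genes catalogued for expression in the germ line and in tumours, 22 (26.2%) reached 1 TPM in all 3 libraries. The share over all protein-coding genes was 55.2%. At 10 TPM or more stood 13 of the antigens, beside 6759 of 19002 protein-coding genes. The highest, KIF2C (102, 95.7 and 99.4 TPM), is a mitotic kinesin, and ATAD2, CEP55, OIP5, PBK and TTK, further down the list, also act in dividing cells. SPAG9 is broadly expressed. Of the antigen families known chiefly from the germ line, MAGEA1 was at 88.3, 80.0 and 85.0 TPM, PAGE1 at 49.6, 44.4 and 39.5 TPM and CTAG2 at 18.7, 18.5 and 16.5 TPM. Within the MAGEA family, 4 of 11 genes reached 1 TPM, and MAGEA8 and MAGEA9 were listed at 0. These genes have close paralogs, which makes low values uncertain. Of 128 homeobox and patterning genes, 15 (11.7%) reached 1 TPM, beside the same 55.2%, led by SOX12 (17.5, 16.8 and 19.9 TPM) and SOX8 (14.5, 13.6 and 14.1 TPM). In the HOX clusters, 3 of 10 HOXB genes reached 1 TPM, against 0 of 11 HOXA, 0 of 9 HOXC and 0 of 9 HOXD genes. HOXB4 was at 5.54, 4.58 and 5.51 TPM and HOXB7 at 4.70, 4.94 and 4.62 TPM.

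**Figure D4:**
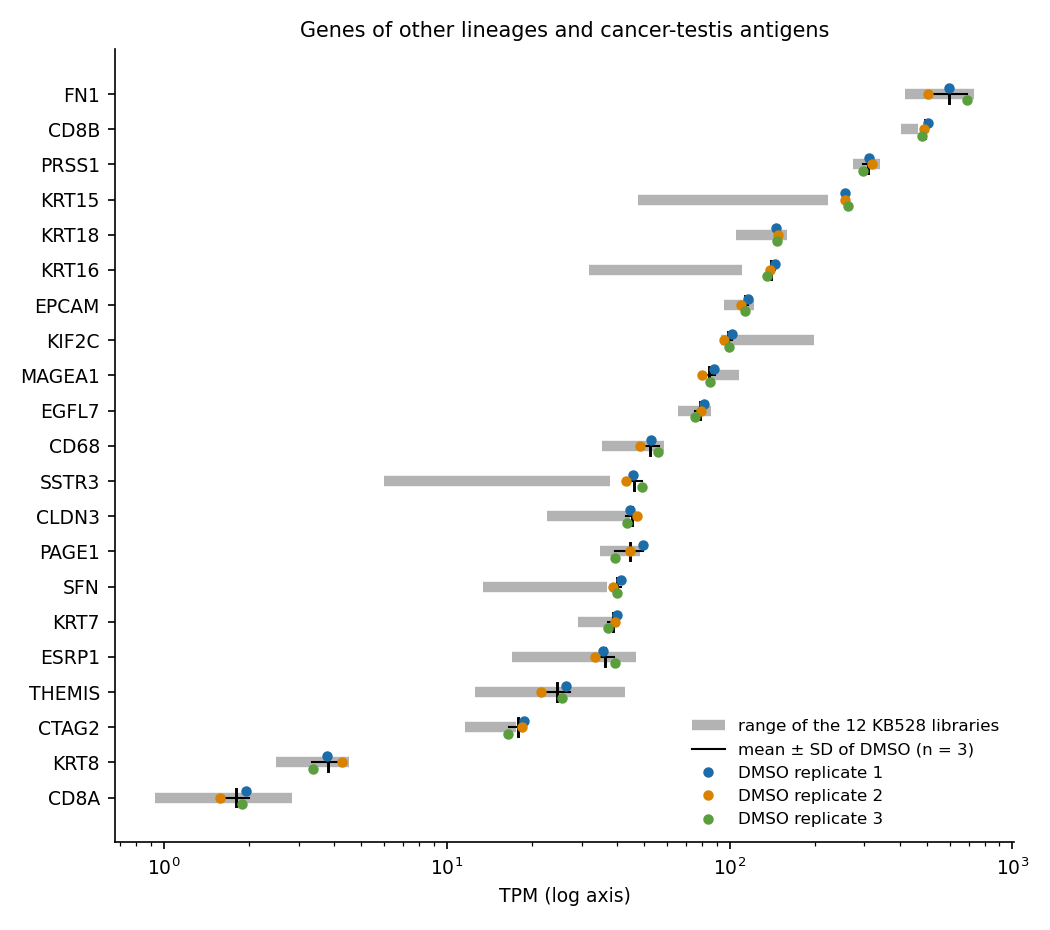
TPM (log axis) of 21 genes of other lineages and cancer-testis antigens; coloured points are the 3 DMSO libraries with mean and SD, and grey bars span the 12 KB528 libraries. KRT15, KRT16, SSTR3, SFN and CD8B lie to the right of their grey bars, and FN1, PRSS1 and EPCAM lie within them.

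The DMSO levels of these genes were set beside the 12 KB528 libraries. The DMSO libraries are labelled 0 h and have no match at later times, so KB528 and hours in culture cannot be told apart. Among all 7091 genes of at least 10 TPM in every DMSO library, all KB528 libraries lay below all DMSO libraries for 3.23%, and above them for 6.21%. Among the 37 lineage and ectopic genes that met the same minimum, 5 lay wholly below, 0 wholly above and 32 overlapped. The minimum was set on the DMSO libraries alone, for these 37 as for the 7091, which favours lower values elsewhere. The 5 were KRT15, KRT16, SFN, SSTR3 and CD8B. KRT15 ranged from 47.5 to 223 TPM under KB528 and KRT16 from 31.9 to 111 TPM. At 24 h KRT15 was at 47.5, 49.4 and 47.9 TPM in the 3 libraries. SSTR3 ranged from 6.01 to 37.9 TPM, SFN from 13.5 to 37.0 TPM and CD8B from 402 to 464 TPM. CD8B thus lay below its DMSO range by a small margin. The 22 genes from lineage lists held all 5, and none of the 15 from ectopic lists was among them. At 24 h alone, 15 of the 37 lay wholly below DMSO and 14 wholly above, beside 19.9% and 51.0% of the 7091 genes. SOX8 was then at 4.69, 4.73 and 4.33 TPM, FN1 at 460, 437 and 417 TPM and KRT18 at 109, 115 and 121 TPM. THEMIS, at 42.8, 40.9 and 42.0 TPM, was among the higher ones. The count over all KB528 times and that at 24 h were chosen after the data were seen and have no test. Libraries of 1 time point share their treatment, so the 12 are not replicates of a condition.

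Of the 345 lineage genes under 1 TPM in all 3 DMSO libraries, 340 were also under it in all 12 KB528 libraries. The same held for 13366 of all 14179 such gene rows and for 7842 of 8258 such protein-coding rows, so most low genes of any kind stayed low. Of the same 345, 1 reached 1 TPM in all 3 libraries of any KB528 group, compared with 317 of all 14179 such genes (2.24%). That gene was TGM1, a transglutaminase of the epidermal barrier, at 0.813, 0.885 and 0.783 TPM in DMSO and 1.07 ± 0.0597 TPM (SD, n = 3) at 1 h. Its highest group mean was 1.47 ± 0.136 TPM at 3 h, and the later groups, 6 and 24 h, had means of 1.24 ± 0.219 and 1.26 ± 0.0800 TPM. Of 173 ectopic genes under 1 TPM in DMSO, 1 did so, SOX11, at 0.992, 0.850 and 0.913 TPM in DMSO and 1.58 ± 0.171 TPM (SD, n = 3) at 24 h. All 3 DMSO values of both genes lay between 0.783 and 0.992 TPM. Choosing genes for being low in DMSO favours upward values elsewhere.

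Promoter composition followed level across protein-coding genes. Among 14322 with a RefSeq promoter, the share of CpG-rich windows (observed over expected CpG of at least 0.6) was 26.1% for genes listed at 0, 54.5% between 0.1 and 1 TPM, 75.3% between 1 and 10 TPM and 88.9% between 100 and 1000 TPM. Among the 83 genes of 1000 TPM and more, 89.2% were CpG-rich and 9 were not. Those 9 included JCHAIN, MZB1, ITGB7 and BST2 (2 CpG), the windows of the first 3 of which are printed above, beside RPL6, ALDOA, LDHB, CYBA and PPP1R14B. The TATA box letters TATAAA on either strand were in 20.5% of promoters of genes listed at 0, in 4.08% between 10 and 100 TPM and in 10.8% at 1000 TPM and more. The antibody secretion list was CpG-rich in 90.1% of its 81 promoters. Gene classes departed from this order. Homeobox and patterning genes, of which few were on, had CpG-rich windows in 85.9% of 78 promoters, whereas olfactory receptors had them in 1.35% of 297. Lineage genes at 1 TPM or more were CpG-rich in 23.7% of 38 promoters, near the 24.7% of 227 lineage genes under 1 TPM, and far from the 64.4% of all promoters. Position within a window, methylation and binding were not measured in these data.

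**Figure D5:**
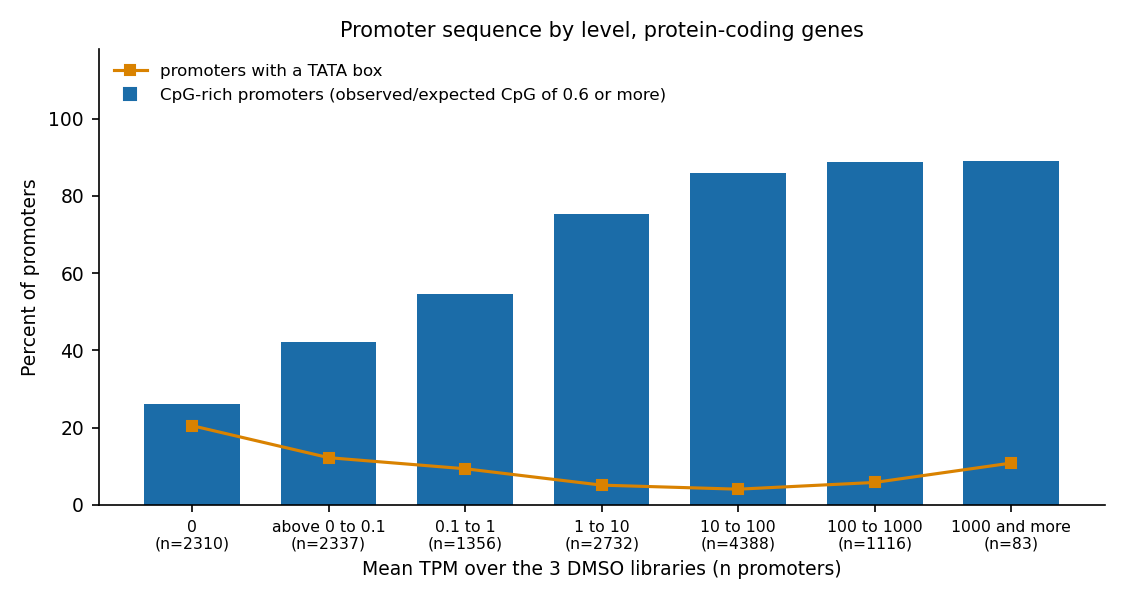
Percent of protein-coding promoters (250 bases upstream of the first listed start) that are CpG-rich (bars) or hold a TATA box (line), by mean TPM over the 3 DMSO libraries. The CpG-rich share is 26.1% for genes listed at 0 and 89.2% at 1000 TPM and more.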

How the data were processed

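Strand-specific mRNA libraries were made from RNA of RPMI-8226 cells, per the labels' protocols. Alignment to hg19 and counting are represented by STAR and featureCounts in the submitters' processing notes, beside the quality tools FastQC and MultiQC. The deposited table gives TPM for 26456 rows, and each of its 15 columns sums to 1000000 when spike-ins are included. Counts and settings are not given in the sources used here. The columns named untreated at 0 h were matched to the DMSO samples by time point and replicate. No column was left out.

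Levels were described in the 3 DMSO libraries with Python 3.11.15, pandas 2.3.3 and numpy 2.4.6, without tests, since a level has no contrast. A gene counted as expressed from 1 TPM in all 3 libraries. TPM holds no counts, so the value of 1 read was taken from the lowest steps of small RNA rows (93.6% to 95.6% of the low values were whole reads within 0.02 reads). That step was tested on simulated data. The simulated check of the coefficient of variation used a root mean square over genes, so the median reported here was not itself tested. Genes were described in 42 lists, of which 16 of 1969 members had no row. The members and lists were chosen with earlier results of these data known. Named were the 6 markers, the 20 most abundant genes with and without translation and small RNA genes, the highest members and members under 1 TPM of each list and the 10 most variable genes. Other list members given with values were chosen after their values were seen. RefSeq GRCh38.p14 supplied gene names for 25198 rows (95.6%) and promoters. No coordinates were taken from the deposited table. Protein features were planned but not used here. Alternatives were other minimums, scalings and leaving out each library. Not every list member is reported here.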

Additional observations from a re-analysis of the deposited data

How the results depend on the processing

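Counts of expressed genes, shares of the most abundant genes and the coefficient of variation were recomputed with the spike-ins rescaled away, without small RNA genes, with other minimums, with median-ratio scaling and without each library. Of the leading counts, those of lineage and ectopic genes changed: at a minimum of 5 TPM, 32 lineage genes (66 at 1 TPM) and 19 ectopic genes (37 at 1 TPM) remained above the minimum, by the construction of that setting. Removing the spike-ins from the total multiplies every level by 1.13, 1.17 and 1.16 in replicates 1 to 3, which moved the mean of each of the 6 markers by more than 1 SD (IRF4 to 106 TPM, MZB1 to 3021 TPM) and kept their order. Over the 45 results that depend on the minimum, 17 moved at 5 TPM and 4 at 0.5 TPM. The liver list and the pluripotency and germ line list, with 1 gene each at 1 TPM, gave 2 under several settings. Of their members, 22 of 24 and 24 of 26 were under 1 TPM in all 3 libraries. A further gene in each list reached 1 TPM in only some libraries, and its part in the change was not tested. Absence was not resolved where the table lists widely needed genes at 0.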
